A study of Mus musculus with 53 samples.

Results

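Nucleotidase genes and genes for receptors of extracellular nucleotides and adenosine were followed in SCA3 mice and wild-type mice, in brainstem, cerebellum, cortex and striatum. The members were those named in a list of 10 genes that was drawn up with earlier results of these data known: the nucleotidases Entpd1, Entpd2, Entpd4, Entpd5 and Nt5e, the ATP-gated channels P2rx4, P2rx6 and P2rx7, the ADP receptor P2ry1 and the adenosine A1 receptor Adora1. Of these, 9 had a row in the count table of 12372 genes, and Entpd4 was not analysed here. A gene entered that table when it averaged above 4 CPM (counts scaled to 1 M counted reads per library) over all 53 libraries, so the members were selected on being detectable, and the mean levels of the 9 ran from 8.81 CPM for P2rx6 to 158 for Adora1. P2rx6 was the member nearest that floor, and the lowest gene of the whole table averaged 4.07. Among the results known was the lower Entpd2 level in SCA3 cortex, and that difference is therefore given below as a description without a test.

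ATP that leaves a cell acts on P2X channels, which let in cations when ATP binds, and on P2Y receptors, which signal through G proteins. Membrane ectonucleotidases of the Entpd family cut ATP and ADP down to AMP, and ecto-5'-nucleotidase, the product of Nt5e and also known as CD73, turns AMP into adenosine, which quiets synapses through the A1 receptor. In brain these steps are shared among microglia (Entpd1, also known as CD39), progenitor cells and astrocytes (Entpd2) and neurons, whereas the enzymes made from Entpd4 and Entpd5 work inside the Golgi apparatus and the endoplasmic reticulum.

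RNA was sequenced from 14 male mice aged 74 to 77 weeks, 8 of them wild-type and 6 SCA3. Wild-type libraries numbered 8 in brainstem, 7 in cerebellum, 7 in cortex and 8 in striatum, and SCA3 libraries 6, 6, 6 and 5. SCA3 mice were hemizygous MJD84.2 animals on a C57BL/6 background, whose transgene is human ATXN3 with a lengthened CAG tract, driven by its own human promoter, and which keep their mouse Atxn3 genes. The wild-type mice lacked the transgene and were otherwise of the same background. Libraries held 31.7 M to 76.7 M counted reads. Each library was made from a whole tissue piece, so fewer cells of a type and less RNA per cell cannot be told apart in any value below. Cerebellar neuron markers separated the cerebellar libraries (mean log2 CPM of 4 genes 9.51 to 10.1) from all others (at most 5.73). Striatal projection neuron markers did not separate striatum fully from cortex, with scores over 11 genes of 7.55 to 9.66 in striatum and 6.08 to 8.49 in cortex. Wild-type striatal libraries of mice 7267058 and 7267059 had thalamic marker scores of 6.98 and 7.70, above every SCA3 striatal library (3.42 to 5.08). Brainstem libraries of SCA3 mouse 7267054 and wild-type mouse 9083373 had cerebellar scores of 5.73 and 5.64, above the others of that region. In thalamic score 3 brainstem libraries stood apart, wild-type mouse 7267055 at 5.88 and SCA3 mice 9083514 and 9083515 at 5.73 and 5.81, with the others at 4.18 to 4.99. RNA integrity numbers were 6.3 to 7.6 in wild-type and 7.4 to 8.0 in SCA3 brainstem.

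The promoters of the 4 members called between the genotypes, in a region or over all regions jointly, are shown because the differences concern the amount of their transcripts. Entpd2 lies on chromosome 2, plus strand, from 25395874 to 25401321 (GRCm38, GENCODE vM21). P2rx7 (122643911 to 122691432) and P2rx4 (122707544 to 122729738) follow each other on the plus strand of chromosome 5 with 16111 bases between them, and Nt5e spans 88327197 to 88372092 on the plus strand of chromosome 9. Each sequence below covers 300 bases around the annotated start in RefSeq (GRCm38.p6), 5′ to 3′ on the gene's strand, and capitals mark GGGCGG (the core of a GC box), TGACG (the core of a cAMP response element) and TATAAA, on either strand (the first reads CCGCCC and the second CGTCA on the other strand, and copies may overlap).
Entpd2, chr2:25395624-25395923: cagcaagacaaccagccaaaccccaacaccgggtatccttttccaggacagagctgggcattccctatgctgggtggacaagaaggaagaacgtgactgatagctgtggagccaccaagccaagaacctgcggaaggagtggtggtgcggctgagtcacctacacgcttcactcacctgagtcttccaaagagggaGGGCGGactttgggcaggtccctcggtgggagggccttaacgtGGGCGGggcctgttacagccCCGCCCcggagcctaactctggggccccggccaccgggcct
P2rx7, chr5:122643677-122643976: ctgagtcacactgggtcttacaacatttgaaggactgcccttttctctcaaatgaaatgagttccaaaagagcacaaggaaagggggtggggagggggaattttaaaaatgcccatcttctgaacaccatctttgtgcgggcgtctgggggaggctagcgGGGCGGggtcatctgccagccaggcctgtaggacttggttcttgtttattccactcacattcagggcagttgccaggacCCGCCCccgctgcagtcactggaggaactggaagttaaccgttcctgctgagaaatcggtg
P2rx4, chr5:122707294-122707593: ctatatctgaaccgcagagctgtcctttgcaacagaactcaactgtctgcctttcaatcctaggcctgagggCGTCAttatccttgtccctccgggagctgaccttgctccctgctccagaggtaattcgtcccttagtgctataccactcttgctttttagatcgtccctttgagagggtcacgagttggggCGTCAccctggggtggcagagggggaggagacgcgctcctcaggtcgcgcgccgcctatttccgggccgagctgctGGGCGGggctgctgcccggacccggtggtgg
Nt5e, chr9:88327359-88327658: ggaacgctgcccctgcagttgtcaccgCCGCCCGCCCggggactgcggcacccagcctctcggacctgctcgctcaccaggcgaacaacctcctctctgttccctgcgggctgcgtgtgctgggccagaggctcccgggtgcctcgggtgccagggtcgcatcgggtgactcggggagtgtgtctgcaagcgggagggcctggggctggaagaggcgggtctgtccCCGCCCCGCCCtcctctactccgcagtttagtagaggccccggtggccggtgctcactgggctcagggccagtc
RefSeq lists a second P2rx7 promoter (chr5:122650133-122650432), not printed, with none of these motifs. All 4 printed windows held GGGCGG, with 3 copies in Entpd2, 2 in P2rx7, 1 in P2rx4 and 4 in Nt5e. P2rx4 alone of the 4 also held TGACG, with 2 copies, and none of them held TATAAA. RefSeq lists 12 promoters for the 9 genes, of which 8 held GGGCGG, 4 held TGACG and 1 held TATAAA, against 35.7%, 20.8% and 13.6% of 32851 mouse promoters of the same length. A match is a run of letters and was not tested for binding.

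In wild-type mice the members were spread over a wide range of transcript levels, which are compared between genes as CPM per kb of annotated exon. Adora1 was the most abundant in every region, at 21.4 ± 4.20 (SD, n = 8) in striatum to 31.5 ± 2.81 (SD, n = 7) in cerebellum, and Nt5e the least, at 0.884 ± 0.0867 (SD, n = 7) in cerebellum to 1.51 ± 0.401 (SD, n = 8) in striatum. Among the nucleotidases Entpd5 led with 7.66 to 13.7, followed by Entpd2 with 4.17 to 7.65 and Entpd1 with 1.72 to 4.03. The P2X channels and P2ry1 lay between 1.2 and 5 CPM per kb.

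**Figure D1:**
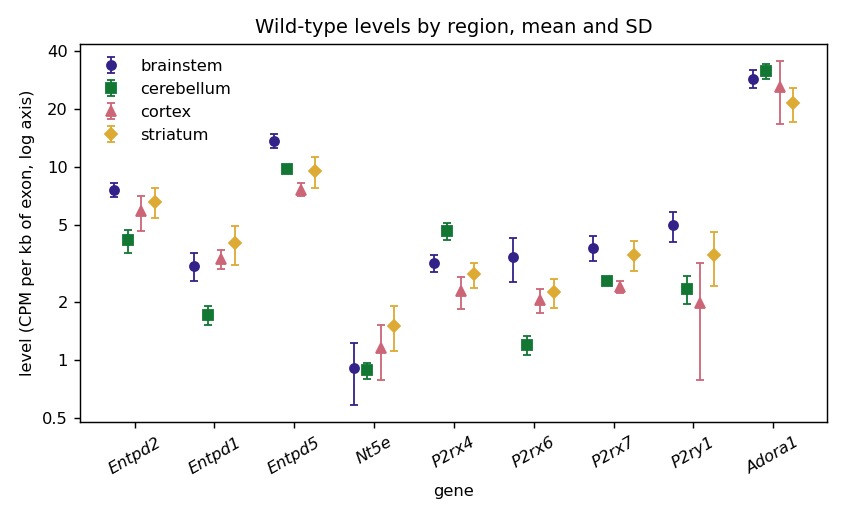
Wild-type level of each gene (horizontal axis) in 4 regions, as mean CPM per kb of exon on a log axis, with bars for the SD over 7 or 8 libraries. Adora1 lies above all others, Nt5e is lowest, and the cerebellum is lowest for Entpd1, Entpd2 and P2rx6 but highest for P2rx4.

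The nucleotidases differed in where they were highest. In the following region comparisons an edgeR likelihood ratio test with Benjamini-Hochberg adjustment (FDR) over all 12372 genes was used, at a threshold of 0.05, and levels are CPM. Entpd1 was lowest in cerebellum (9.60 ± 1.1, SD, n = 7), intermediate in brainstem (17.1 ± 2.79, n = 8) and cortex (18.6 ± 2.09, n = 7) and highest in striatum (22.5 ± 5.18, n = 8), and its brainstem and cortex levels did not differ beyond their spread (edgeR FDR 0.33). Entpd2 was likewise lowest in cerebellum (8.88 ± 1.21, n = 7), while brainstem (16.3 ± 1.31, n = 8) exceeded cortex (12.5 ± 2.58, n = 7, edgeR FDR 0.003) and striatum (14.1 ± 2.53, n = 8) was separable from neither (edgeR FDR 0.097 and 0.28). Entpd5, which acts on nucleoside diphosphates in the endoplasmic reticulum, was highest in brainstem (82.4 ± 6.66, n = 8) and lowest in cortex (46.2 ± 3.61, n = 7), with cerebellum (59.2) and striatum (57.6) alike within their spread (edgeR FDR 0.67). Nt5e was higher in striatum (13 ± 3.45, n = 8) than in brainstem (7.83 ± 2.78, n = 8, edgeR FDR 0.00017) and cerebellum (7.61 ± 0.746, n = 7, edgeR FDR 0.00011). Its cortical level of 9.93 ± 3.14 (n = 7) was not separated from any other region (edgeR FDR 0.068 to 0.099).

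Receptor genes followed other orders. P2rx4 was the one P2X gene that peaked in cerebellum (32.9 ± 3.34, n = 7), with brainstem (22.3 ± 2.31, n = 8) and striatum (19.5 ± 2.86, n = 8) not separated (edgeR FDR 0.055) and cortex lowest (16.0 ± 3.02, n = 7). P2rx6, whose protein forms channels mainly together with other P2X subunits, had the most in brainstem (13.6 ± 3.51, n = 8) and the least in cerebellum (4.81 ± 0.525, n = 7), where P2rx4 was highest, with a log2 fold change of 1.5 (SE 0.16, edgeR FDR 1.4e-19). P2rx7 was higher in brainstem (22.9 ± 3.29, n = 8) and striatum (21.0 ± 3.71, n = 8) than in cerebellum (15.3 ± 0.471, n = 7) and cortex (14.3 ± 1.03, n = 7), and neither pair differed within itself (edgeR FDR 0.19 and 0.35). The P2ry1 level was ordered from brainstem (21.5 ± 3.81, n = 8) through striatum (15.1 ± 4.63, n = 8) and cerebellum (10.1 ± 1.67, n = 7) to cortex (8.51 ± 5.10, n = 7), and no neighbours in that order differed (edgeR FDR 0.1, 0.07 and 0.49). Adora1 was lower in striatum (124 ± 24.3, n = 8) than in cerebellum (182 ± 16.3, n = 7, edgeR FDR 0.00044) and brainstem (167 ± 17.4, n = 8, edgeR FDR 0.0066).

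Such regional differences were common to most genes. Between brainstem and cerebellum 7 of the 9 members were called, against 72.6% of all genes, and the counts were 6 for brainstem against cortex (65.4%), 5 for brainstem against striatum (64.2%), 5 for cerebellum against cortex (69.7%) and 7 for cerebellum against striatum (69.5%). Cortex and striatum differed for 5 members (34.4% of all genes), each of them higher in striatum. With the mouse as a replicate block 8 members were called between brainstem and striatum (limma-voom, 7 without the block) and 3 between cortex and striatum (edgeR with each mouse as a term), and the latter count was 2 without wild-type mouse 7267058 and 3 without wild-type mouse 9082857.

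The comparison of SCA3 with wild-type mice asks where mice with the expanded ATXN3 transgene differ in transcript level, and the calls concerned Entpd2, P2rx7 and Nt5e. No mice with a normal-length ATXN3 transgene were included, and every SCA3 mouse weighed less than every wild-type mouse. The expansion, the transgene itself and body weight therefore cannot be told apart. In brainstem, 1 of 9 members was called between the genotypes (1.92% of all genes), in cerebellum 0 (0.0647%) and in striatum 2 (7.54%), by the edgeR likelihood ratio test on all libraries. In cortex (0.154%) 2 passed, Entpd2, whose value was known when the list was made and from which nothing is read, and P2rx7, which was higher in SCA3. Entpd2 was the lower member in brainstem and striatum, and Nt5e was higher in striatum. In cerebellum 1 member had an unadjusted p under 0.05 and none was called by the edgeR quasi-likelihood test, DESeq2 or limma-voom. The median log2 fold change of the 9 members was -0.06 in brainstem, 0.07 in cerebellum, 0.06 in cortex and 0.13 in striatum, where the median over all genes was 0.00.

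**Figure D2:**
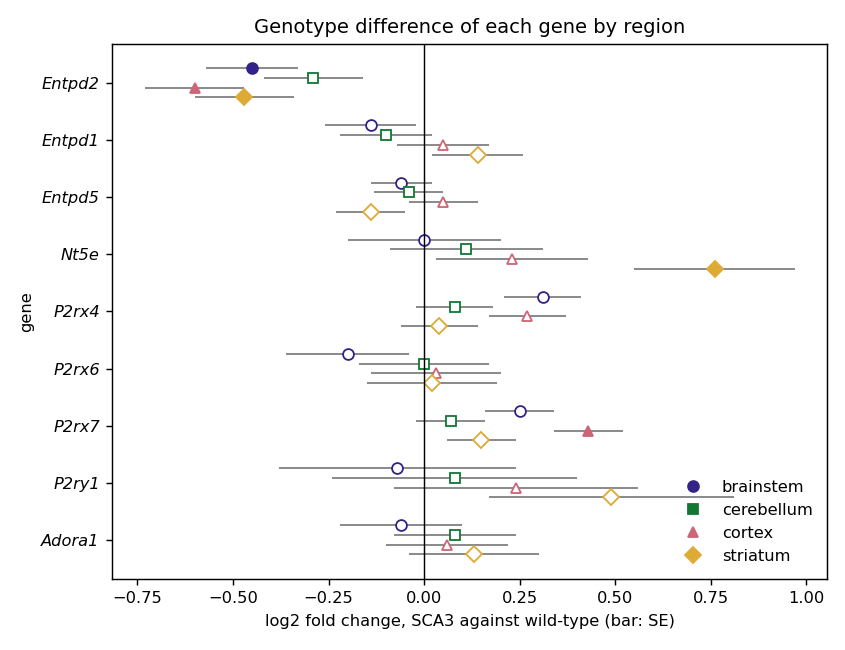
Log2 fold change of SCA3 against wild-type (horizontal axis) for each of the 9 genes (vertical axis) in 4 regions, with bars for the SE of the edgeR fit and filled symbols for FDR below 0.05. Entpd2 lies left of 0 in all regions, P2rx7 and P2rx4 lie right of 0, and Nt5e stands out in striatum. The filled Entpd2 symbol in cortex is the value known when the list was drawn up.

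Entpd2, whose enzyme removes mainly the last phosphate of ATP and so favours ADP as product, was lower in SCA3 mice in each region. In brainstem the wild-type libraries ran from 14.4 CPM through a median of 16.7 to 17.7, and the SCA3 libraries from 10.3 through 11.8 to 14.3. The groups did not overlap, and the log2 fold change was -0.45 (SE 0.12, edgeR FDR 0.024). In striatum the 5 SCA3 libraries read 7.22, 10.1, 10.4, 11.0 and 12.1 CPM, against 10.1 to 17.5 with a median of 14 in wild-type. The lowest wild-type libraries, of mice 9082857 (10.1) and 9083371 (11.9), lay within the SCA3 range, and the log2 fold change was -0.47 (SE 0.13, edgeR FDR 0.012). In cerebellum SCA3 libraries held 4.83 to 8.70 CPM (median 7.39) and wild-type ones 7.89 to 10.8 (median 8.33), which was not called (log2 fold change -0.29, SE 0.13, edgeR FDR 1). In cortex, the region whose difference was known beforehand, SCA3 libraries held 6.75 to 8.90 CPM (median 8.67) and wild-type ones 9.03 to 16.1 (median 12.8), a log2 fold change of -0.60. Brainstem, striatum and cortex came from the same mice, so they are not independent samples of the genotype.

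**Figure D3:**
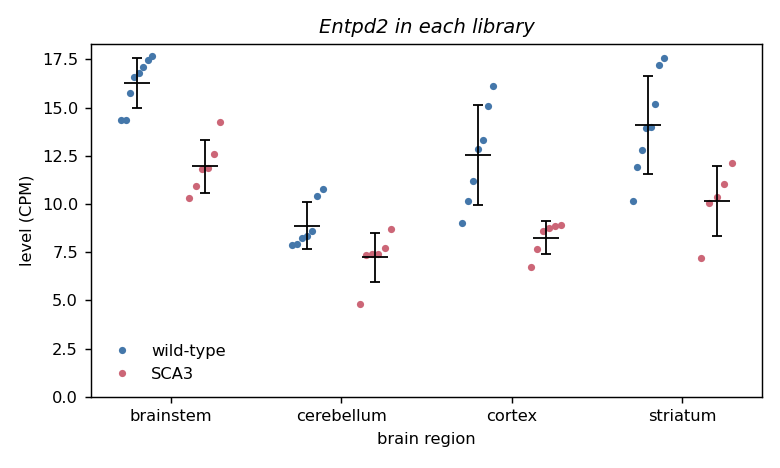
Entpd2 level in CPM (vertical axis) in each library by region, wild-type in blue and SCA3 in red, with the mean and SD in black and points set side by side in rising order. SCA3 libraries lie below all wild-type ones in brainstem (10.3 to 14.3 against 14.4 to 17.7) and in cortex, and overlap with them in cerebellum and striatum.

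The 2 tested Entpd2 calls did not hold in every fit. In brainstem the call was lost without SCA3 mice 7267054, 7267056 or 9082853 or wild-type mouse 7267058 (edgeR FDR 0.1, 0.051, 0.064 and 0.052), and in striatum without SCA3 mice 7267056 or 9083514 (edgeR FDR 0.051 and 0.054), while the log2 fold change stayed between -0.54 and -0.37. Astrocyte markers were lower in SCA3 brainstem, where 3 of 9 were called and the mean score (log2 CPM) was 8.05 to 8.42 against 8.10 to 8.91 in wild-type, and in SCA3 striatum, where 5 of 9 were called and it was 7.37 to 7.74 against 7.55 to 8.42. With that score as a covariate Entpd2 had a log2 fold change of -0.41 in brainstem (edgeR FDR 0.082) and -0.43 in striatum (edgeR FDR 0.061), and with the RNA integrity number as a covariate -0.39 in brainstem (edgeR FDR 0.091). Both calls held with the oligodendrocyte precursor score as a covariate. After subtraction of group means, the r of Entpd2 was 0.58 with that score and 0.10 with the astrocyte score. The part of cell content in the Entpd2 values was not tested. The brainstem libraries alone with the thalamic score as a covariate gave a log2 fold change of -0.49 (edgeR FDR 1.1e-06). The striatal libraries fitted alone gave -0.47 (edgeR FDR 0.15), whereas without wild-type mice 7267058 and 7267059 in striatum the value was -0.50 (edgeR FDR 0.03). Of the exon bases of Entpd2, 28.8% (612 bases) are shared with Npdc1 on the same strand, where reads cannot be assigned to one gene. Npdc1 itself had log2 fold changes of -0.11 to 0.15 over the regions and was not called.

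Entpd1 and Entpd5 were not called in any region. Entpd1 had log2 fold changes of -0.14 in brainstem, -0.10 in cerebellum, 0.05 in cortex and 0.14 in striatum (SE 0.12 in each, edgeR FDR 0.51 to 1). Entpd5 ranged from -0.14 in striatum to 0.05 in cortex (SE 0.08 to 0.09, edgeR FDR 0.34 to 1), but in the second largest mouse number series alone it was -0.49 in striatum (edgeR FDR 0.0034). Neither gene's groups were separate in any region. The second series held 3 wild-type mice, among them 7267058 and 7267059, whose striatal libraries were high in thalamic markers. Those libraries held 71.6 and 72.8 CPM of Entpd5, against 60.0 in wild-type mouse 7267055. After subtraction of group means, the r of Entpd5 with the thalamic score was 0.56, and the part of thalamic content was not tested.

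Nt5e, which makes adenosine from AMP, was called in striatum. The 5 SCA3 libraries held 16.4, 17.2, 24.2, 25.4 and 26.3 CPM, and the 8 wild-type libraries ran from 8.20 through a median of 12.2 to 18.8. Wild-type mice 9082857 (18.8) and 9083371 (16.9) reached into the SCA3 range, and the log2 fold change was 0.76 (SE 0.21, edgeR FDR 0.008). In the other regions the log2 fold change was 0.00 in brainstem, 0.11 in cerebellum and 0.23 in cortex (SE 0.20 in each, edgeR FDR 1), but a difference of the effect between regions was not shown (edgeR FDR 0.52). Striatal projection neuron markers moved the same way, with 11 of 11 higher in SCA3 striatum, 0 called, a median log2 fold change of 0.54 and scores of 9.02 to 9.60 against 7.55 to 9.66 in wild-type, and thalamic markers the opposite way, with 6 of 9 called lower. The Nt5e call was lost with the striatal score as a covariate (0.55, edgeR FDR 0.055), without wild-type mice 7267058 and 7267059 (0.69, edgeR FDR 0.062), among libraries with an RNA integrity number of at least 7 (0.65, edgeR FDR 0.088) and without SCA3 mouse 7267056 (0.72, edgeR FDR 0.051).

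P2rx7, the channel that opens at high ATP concentrations and is known for inflammasome activation in microglia, was called in cortex. Wild-type cortical libraries lay between 12.4 and 15.5 CPM (median 14.6) and SCA3 ones between 16.4 and 21.9 (median 19.5). The groups did not overlap, and the log2 fold change was 0.43 (SE 0.09, edgeR FDR 0.0058). It was 0.25 in brainstem (SE 0.09, edgeR FDR 0.14), 0.15 in striatum (SE 0.09, edgeR FDR 0.32) and 0.07 in cerebellum (SE 0.09, edgeR FDR 1). Oligodendrocyte and microglia markers of the cortex had median log2 fold changes of 0.10 and 0.04 with 0 of 10 called in either list. With these scores as covariates P2rx7 in cortex was 0.42 (edgeR FDR 2.1e-08) and 0.40 (edgeR FDR 0.00024), and the cause of the difference was not tested. The cortical call was lost without SCA3 mouse 9083514 (edgeR FDR 0.054) and in limma-voom with the mouse as a replicate block (0.41, FDR 0.081), against an FDR of 0.049 in limma-voom without it.

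In brainstem the P2rx7 value moved when marker scores entered the fit. All 10 oligodendrocyte markers were lower in SCA3 brainstem, 2 of them called, with a mean score of 8.4 to 8.99 against 8.44 to 9.38. In SCA3 striatum 10 of 10 were lower and 4 called. With the oligodendrocyte score as a covariate P2rx7 was higher in SCA3 brainstem by 0.40 (edgeR FDR 4.1e-08) and in striatum by 0.31 (edgeR FDR 0.00023). That covariate was added after the data were seen, was itself lower in SCA3 and had an r of 0.79 with P2rx7. These values therefore cannot be read apart from the score. Over all alternatives P2rx7 was called in 4 of 32 fits in brainstem and 2 of 33 in striatum. Without wild-type mouse 7267059, which held the highest wild-type level (27.7 CPM), it was called in brainstem (0.29, edgeR FDR 0.023).

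P2rx4, a channel of neurons and activated microglia that lies next to P2rx7 in the genome, was not called in any single region. Wild-type brainstem held 18.8 to 25.9 CPM (median 22.6) and SCA3 brainstem 24.6 to 30.8 (median 27.8), where wild-type mouse 7267059 alone (25.9) reached into the SCA3 range. The log2 fold change was 0.31 (SE 0.10, edgeR FDR 0.063), and it was called under 11 of 32 alternatives, among them the brainstem libraries alone (edgeR FDR 0.028, or 5.8e-05 with the thalamic score as a covariate) and the RNA integrity number as a covariate (edgeR FDR 0.0089). In cortex it was 0.27 (SE 0.10, edgeR FDR 0.72), in cerebellum 0.08 and in striatum 0.04. Of 8 other genes of the table within 250 kb of the pair, Anapc5 was called in brainstem (0.21, edgeR FDR 0.0065), where 1.92% of all genes were, and none in cerebellum (0.0647%), cortex (0.154%) or striatum (7.54%).

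**Figure D4:**
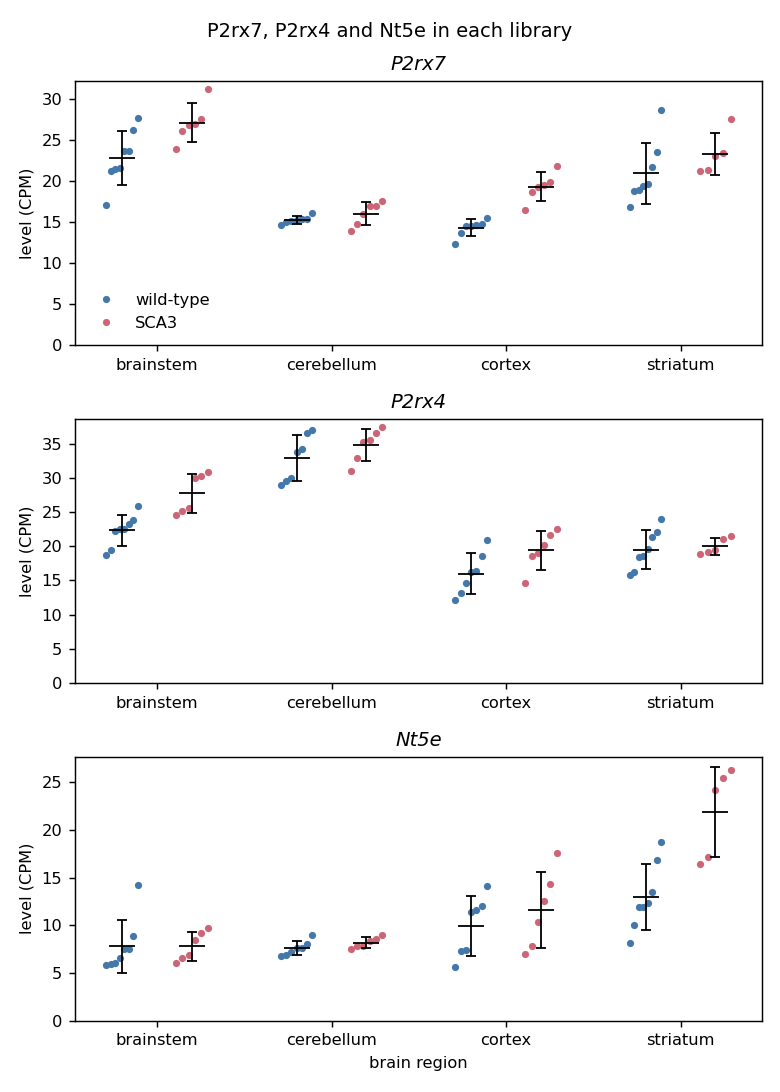
Levels of P2rx7, P2rx4 and Nt5e in CPM (vertical axes) in each library by region, wild-type in blue and SCA3 in red, with the mean and SD in black and points set side by side in rising order. P2rx7 separates the genotypes in cortex (12.4 to 15.5 against 16.4 to 21.9), P2rx4 nearly does so in brainstem, and Nt5e is highest in SCA3 striatum.

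In a joint test of the 4 regions, which called 4.73% of all genes, P2rx7 (edgeR FDR 0.00021) and P2rx4 (edgeR FDR 0.033) were called. The fit had no mouse term, so this test took the libraries of a mouse as independent, although the regions came from the same mice. Entpd2 passed as well, to make 3 of the 9 members, but its test contains the cortical value known beforehand and nothing is read from it. P2rx7 was called under all 29 alternatives to this test and P2rx4 under 17 of them, whereas Nt5e was not called (edgeR FDR 0.065) and passed under 5. The test for an effect that differed between regions called 0 members (0.218% of all genes), with 2 at an unadjusted p under 0.05 (Nt5e and P2rx7) and 0 called by the edgeR quasi-likelihood test, DESeq2 or limma-voom.

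P2rx6, P2ry1 and Adora1 were not called in any region. P2rx6 ranged from -0.20 in brainstem (SE 0.16, edgeR FDR 0.63) to 0.03 in cortex. Its 3 lowest brainstem libraries, wild-type mouse 7267055 (7.06 CPM) and SCA3 mice 9083515 (7.18) and 9083514 (7.61), were the 3 with high thalamic scores, whereas the rest held 10.9 to 17.9, and over all 53 libraries its group-centred r with the thalamic score was -0.55. The part of thalamic content in the P2rx6 values was not tested. Unstranded reads cannot separate a gene from one on the opposite strand, which covers 13.9% of the exon bases of P2rx6 (Slc7a4), 23.1% of P2ry1 (Gm37035) and 20.1% of Adora1 (Mybph). Adora1 stayed within -0.06 and 0.13 (SE 0.16 to 0.17, edgeR FDR 0.68 to 1). P2ry1 reached 0.49 in striatum, with SCA3 libraries at 16.9, 18.4, 18.4, 25.4 and 26.5 CPM and wild-type ones at 6.71 to 22.0 (median 14.7), but its SE was 0.32 (edgeR FDR 0.36).

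P2ry1 and Adora1 varied most in cortex, and did so within both genotypes. Cortical P2ry1 ran from 3.10 to 17.0 CPM in wild-type and from 2.18 to 17.2 in SCA3 mice, and cortical Adora1 from 91.8 to 230 and from 102 to 248. The 5 cortical libraries lowest in P2ry1 (SCA3 mice 9083515 and 7267054, wild-type mice 7267058, 9083373 and 9082857) were also the 5 highest of 13 in Adora1, the 5 lowest in Nt5e and the 5 highest in the cortical glutamatergic neuron score, which rests on 2 measured genes. Over all 53 libraries, after subtraction of each region-by-genotype group mean of log2 CPM, P2ry1 and Adora1 had a Pearson r of -0.68, the strongest among the 36 pairs of members. Entpd2 and Adora1 followed with -0.63, then Entpd5 and P2rx7 with 0.62, and P2rx4 and P2rx7, like Nt5e and P2ry1, with 0.56. With the cortical neuron score Adora1 had an r of 0.63 and P2ry1 -0.47, by the same measure. Adora1 had -0.73 with the oligodendrocyte precursor score, and P2ry1 and Nt5e 0.54 and 0.58 with the striatal projection neuron score. The striatal score ran from 6.08 to 8.49 in cortical libraries. These points share a library and its tissue content, and the part of the latter was not tested.

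**Figure D5:**
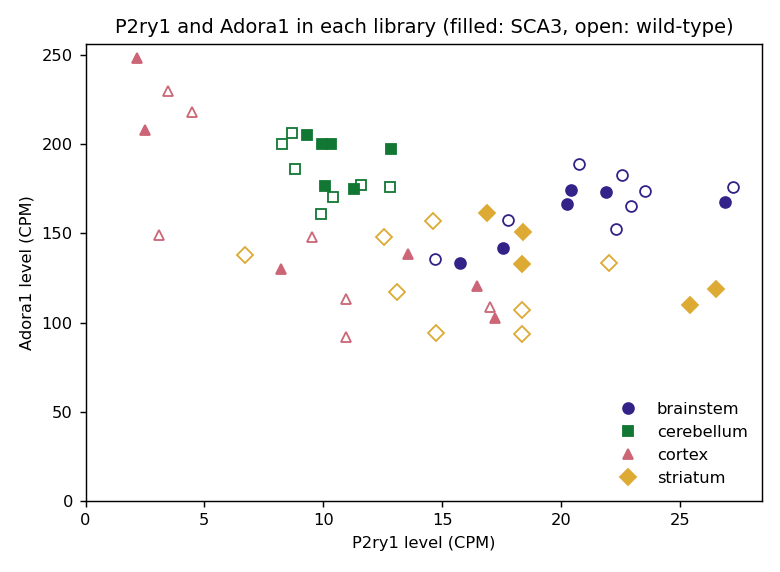
Adora1 level (vertical axis, CPM) against P2ry1 level (horizontal axis, CPM) in each of the 53 libraries, with a symbol per region, filled for SCA3 and open for wild-type. Cortical libraries of both genotypes run from high Adora1 and low P2ry1 (SCA3 mouse 9083515, 248 and 2.18) to low Adora1 and high P2ry1 (SCA3 mouse 7267056, 102 and 17.2).

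The same measure named the genes of the table whose deviations were most like each member. Entpd1 was nearest to Fcgr3 (0.762), Igsf11 (0.736) and Laptm5 (0.72), and had an r of 0.72 with the microglia marker score. P2rx7 was nearest to Tmbim1 (0.862), Npc1 (0.855) and Cers2 (0.853), with 0.79 for the oligodendrocyte score, and Entpd5 to Scarb2 (0.921), Rdx (0.9) and Endod1 (0.876), with 0.68 for the same score and 0.67 for that of astrocytes. Entpd2 was nearest to Rapgef3 (0.728), Adgrg1 (0.725) and Heyl (0.708), with 0.58 for the oligodendrocyte precursor score but 0.10 for that of astrocytes. Nt5e lay nearest to Cd163 (0.753), Pttg1ip (0.742) and Svil (0.73), and P2rx4 to Hhatl (0.794), Arhgef37 (0.778) and Grid2ip (0.776). For P2rx6 they were Lamp5 (0.812), Ankrd35 (0.772) and Sema3a (0.741), for P2ry1 Abat (0.892), Xkr8 (0.878) and Ap1s2 (0.846), and for Adora1 Scn8a (0.916), Abcc8 (0.913) and D17Wsu92e (0.91). Each r is a description over 53 libraries.

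Of 42 other listed genes for nucleotide release, breakdown, transport and sensing, 24 were in the table, and 2 of these were called in brainstem (1.92% of all genes), 0 in cerebellum (0.0647%), 0 in cortex (0.154%) and 3 in striatum (7.54%). Gja1, whose connexin-43 hemichannels of astrocytes can pass ATP, was lower in SCA3 brainstem (224 ± 26.1 CPM, SD, n = 6, against 334 ± 40.9, n = 8, log2 fold change -0.58, SE 0.11, edgeR FDR 4.2e-05) and striatum (170 ± 23.8, n = 5, against 236 ± 49.8, n = 8, -0.47, SE 0.11, edgeR FDR 0.0029). Astrocyte markers were lower in the same regions, 8 of 9 in brainstem (3 called, median log2 fold change -0.35) and 9 of 9 in striatum (5 called, -0.33), and their part in the Gja1 values was not tested. The microglial ADP receptor P2ry12 was lower in SCA3 brainstem (24.1 ± 3.12 CPM, n = 6, against 31.2 ± 4.26, n = 8, -0.37, SE 0.11, edgeR FDR 0.042). All 10 microglia markers were lower there too, with a median log2 fold change of -0.14, 0 called and mean scores of 4.86 to 5.27 in SCA3 and 4.62 to 5.61 in wild-type, and their part in the P2ry12 value was not tested. In striatum Pnp, purine nucleoside phosphorylase, was lower (-0.35, SE 0.10, edgeR FDR 0.0094) and the ectonucleotide pyrophosphatase family gene Enpp5 higher (0.16, SE 0.05, edgeR FDR 0.033). Thalamic (6 of 9), astrocyte (5 of 9) and oligodendrocyte (4 of 10) markers were called lower there, and 11 of 11 striatal neuron markers were higher with 0 called. Their part in these values was not tested. In the joint test of the regions Pnp was called (edgeR FDR 0.0036), but Enpp5 and P2ry12 were not (edgeR FDR 0.14 each). The listed P2X genes P2rx1, P2rx2, P2rx3 and P2rx5 had no row in the table, and of the other adenosine receptors Adora2a was measured and had a log2 fold change of 0.43 in striatum (SE 0.33, edgeR FDR 0.43).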

How the data were processed

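RNA sequencing of 53 tissue libraries was used, each from 1 region of 1 of 14 mice. The values are raw counts per gene, deposited by the authors as 1 table. Per the study's methods, poly-A RNA was made into TruSeq libraries without strand information and sequenced in pairs, and uniquely aligned reads were counted per RefSeq gene on GRCm38 without using strand. The submitters' processing notes name cutadapt 1.10, STAR 2.3.0e and HTSeq 0.6.1. Genes above a mean of 4 CPM were kept by the authors.

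Counts were fitted for all 12372 genes over 8 region-by-genotype groups with edgeR 4.0.16 (R 4.3.3; TMM factors, generalized linear model, two-sided likelihood ratio test, Benjamini-Hochberg FDR, threshold 0.05), after the design of the study. CPM used TMM-adjusted totals, and log2 CPM a prior count of 2. A marker score is the mean log2 CPM of the list's measured genes. Positions came from GENCODE vM21 and promoters from RefSeq. DESeq2 1.42.0, limma 3.58.1, other filters, covariates and each mouse left out were alternatives. The fit was tested on simulated data.

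Members and gene lists were chosen with earlier results of these data known. The genes named are the listed members, the other pathway genes called in a region, genes overlapping or near members, and the 3 genes with the highest correlation to each member. Same-numbered mice supply several regions, and their deviations from the group means correlated at 0.0904 to 0.186 on average over 6 pairs of regions. Genotype does not vary within a mouse. Each gene had 1 dispersion estimate over all 8 groups, so p-values measure the spread between mice within groups, pooled over the regions.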

Additional observations from a re-analysis of the deposited data

Results flagged for a closer look

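In 6 of 72 combinations of member, region and genotype, 1 library lay apart from the rest of its group by Dixon's criterion, where chance alone gives about 1 in 20 groups. Wild-type mouse 7267059 did so 3 times: in brainstem with Entpd1 at 22.9 CPM (the others 12.7 to 17.4) and Nt5e at 14.2 CPM (5.83 to 8.91), and in striatum with P2rx6 at 5.50 CPM (8.45 to 10). SCA3 mouse 9082853 stood apart in striatum for Entpd5, at 67.5 CPM against 46.6 to 50.8, and for P2rx6, at 7.57 CPM against 9.26 to 9.76. In striatum these 2 mice held the highest thalamic marker scores of their genotypes, 7.70 and 5.08. The brainstem library of mouse 7267059 had a thalamic score of 4.62 (other wild-type brainstem 4.18 to 5.88), the lowest RNA integrity number of the region (6.3), a fibroblast and meninges score of 5.55 (others 3.42 to 4.15) and a microglia score of 5.61 (others 4.62 to 5.29). The part of these in the values was not tested. Entpd2 was lowest in the cerebellum of SCA3 mouse 9083514, at 4.83 CPM against 7.37 to 8.70 in the other SCA3 libraries. The member comparisons between genotypes with that mouse left out are included in the ranges given for single mice.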

How the results depend on the processing

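Of 1161 alternative values for the SCA3 comparisons, 1104 kept their call and direction or, where not called, stayed within the spread between replicates, 30 lost a call, 19 gained a call and 8 that were not called moved by more than the spread between replicates, among them P2rx7 and P2rx4 in striatum, at -0.10 and -0.18 in the second number series alone. No called value changed direction. The number of members called in brainstem, 1 in the fit reported, was 2 with limma-voom without the mouse block, with libraries of RIN (RNA integrity number) at least 7, with the mouse number series, astrocyte, oligodendrocyte precursor or microglia covariate and with the brainstem alone (also with the thalamic score), 3 with the oligodendrocyte covariate, 0 in either number series alone, and 0 to 3 with each mouse left out. The cortical count of 2 includes Entpd2, from which nothing is read, and was 1 with limma-voom without the block, 0 in limma-voom with the mouse as a replicate block, 0 and 1 in the largest and second number series alone (in the second this was P2rx4, at 0.68, FDR 0.024, and not P2rx7), and 1 to 2 with each mouse left out. The striatal count of 2 was 0 at RIN of at least 7, 1 with the striatum alone and 0 when the thalamic score was added. It was 3 with the oligodendrocyte covariate, P2rx7 being gained, and 1 with the striatal neuron covariate. In the largest series alone it was 0, without the 2 libraries high in thalamic markers 1, and with each mouse left out 0 to 2. Over any region the 3 members called became 2 to 4. In wild-type mice, 5 members between brainstem and striatum became 8 with the replicate block in limma-voom, and 5 between cortex and striatum became 3 with each mouse as a fixed replicate block and 2 to 5 with each mouse left out. In brainstem limma-voom called 2 members without the block and 1 with it, P2rx4 being lost. The block moved no other member count by over 1.5 times, set against limma-voom without it or the fit reported, apart from those given above. The members behind a count were not the same in every fit. Cerebellar and region-dependence counts were 0 under all alternatives run. Marker covariates, single number series and the removal of 2 striatal libraries were added after the data were seen. Groups held 5 to 8 mice, and the SE of a member's genotype difference ran from 0.08 to 0.32 on the log2 scale, which sets what could be detected for each gene. The cause of the changes was not tested.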
